A study of Mus musculus with 6 samples.

Results

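The 10 genes described here encode the enzymes that add methyl groups to lysine H3K36 of histone H3, the MRG-domain proteins that work with them, and the Kdm2 demethylases. They were chosen by name as known members of the pathway, and all 10 were found among the 54532 genes of the deposited table. They are the methyltransferases Ash1l, Nsd1, Nsd2, Nsd3 and Setd2, the MRG group Morf4l1, Morf4l2 and Mrgbp, and the demethylases Kdm2a and Kdm2b. All 10 passed the filter on low counts in each comparison below. The data are bulk RNA sequencing libraries of dorsal root ganglia, in which the cell bodies of sensory neurons lie outside the spinal cord with their glia. 3 libraries came from mice labelled Ash1l+/-, which carry 1 altered copy of Ash1l, and 3 from wild-type (WT) littermates. The title of the series places the study in the control of psoriasis-like skin disease by Ash1l in neurons. The sources used here do not give the structure of the altered allele, the strain, the sex or the age, nor whether each library came from 1 animal. The p-values therefore measure the spread between these libraries, which may be technical.

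Methyl groups on H3K36 mark transcribed chromatin and oppose the Polycomb system, which keeps developmental genes silent. ASH1L and the NSD enzymes place the lower methylation states, while SETD2 travels with elongating RNA polymerase II and completes the trimethyl state over gene bodies. MRG15, the product of Morf4l1, binds methylated H3K36 through a chromodomain and also binds and activates ASH1L, while KDM2A and KDM2B remove the lower states and dock on unmethylated CG-rich DNA.

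Library totals ranged from 17209294 to 20545722 reads assigned to genes. WT replicate 2 stood apart from the other libraries. Across 16032 genes, which are not independent replicates, its log2 expression had correlations of 0.846 to 0.877 with the others, beside at least 0.981 between any pair of the remaining 5. Its scaling factor by the trimmed mean of M-values (TMM) was 0.759, against 1.05 to 1.07 in the rest. The 13 sensory neuron markers were detected in every library, and their summed level was 20877, 20399 and 21100 TPM (a level per length, scaled to the library) in Ash1l+/- against 19683, 12257 and 19450 TPM in WT. In TPM all 3 Ash1l+/- libraries were above all 3 WT libraries for neuron markers, but the place of WT replicate 2 depends on the unit. Its TPM were low beside the deposited FPKM (described below). Ash1l had 3.82 TPM and 2.11 FPKM there, against 15.6 TPM and 4.19 FPKM in WT replicate 1. On the FPKM scale the sum of the neuron markers would be highest in WT replicate 2. Erythrocyte markers summed to 159, 464 and 260 TPM in Ash1l+/- against 381, 1494 and 482 TPM in WT. The 9 skeletal muscle markers summed to between 4.37 and 7.49 TPM in Ash1l+/- against 6.41, 35.1 and 8.63 TPM in WT. WT replicate 2 was also above the other 5 libraries for markers of satellite glia (9577 TPM against 5841 to 7215), macrophages (124 against 49.1 to 59.4) and endothelium (266 against 97.6 to 144). In TPM it was below them for Schwann cells (4516 TPM against 6002 to 7091) and fibroblasts (137 against 319 to 380). On the FPKM scale it would be above them for Schwann cells and still below them for fibroblasts. The part of these marker shifts in the results below was not tested. In bulk tissue, fewer cells of a type and less RNA per cell cannot be told apart. Results are given with all 6 libraries and again with the 5 that remain without WT replicate 2.

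The level of each gene per unit of length was read from the deposited FPKM (fragments per kilobase of exon, scaled to library size). Morf4l2, an MRG-domain protein without a chromodomain, was the highest at 77.7, 84.9 and 89.5 FPKM in Ash1l+/- libraries and 70.9, 47.8 and 80.4 FPKM in WT libraries. Its paralog Morf4l1 followed at 19.8, 19.9 and 21.7 FPKM in Ash1l+/- and 21.0, 16.9 and 21.5 FPKM in WT. In FPKM the ranges of this pair overlapped neither each other nor any other member. The gap between the 2 genes rests on deposited exon lengths of 9754 bases for Morf4l1 and 3135 for Morf4l2. Their raw reads overlapped, at 2183 to 4112 for Morf4l1 and 1983 to 5174 for Morf4l2. With the FPKM of a near-identical processed copy (described below) added, the sum was 31.5 to 54.7 FPKM. The range of the sum overlapped Morf4l2 through WT replicate 2, although Morf4l2 stayed above it within each library. That sum scales the copy's reads on its own, shorter length, and the copy held only 7.89% to 14.5% of the reads of both. On the exon length of Morf4l1 those reads would add far less. Next came Nsd1 (3.80 to 8.69 FPKM over the 6 libraries), Kdm2a (3.70 to 7.31), Nsd2 (4.25 to 6.62), Setd2 (2.29 to 5.93), Ash1l (2.11 to 4.75) and Nsd3 (1.73 to 3.99). Each of these 6 overlapped its neighbour in the order, so the order among them is not separated from the spread between libraries. Mrgbp, a small subunit that ties MRG15 to the TIP60 acetyltransferase complex, was at 2.12 to 4.38 FPKM and overlapped them. Kdm2b was the lowest in every library, at 0.0834 to 1.20 FPKM. In WT replicate 2 the order differed: Mrgbp ranked 3 of 10 there and 9 of 10 in each of the others. Among the methyltransferases, Ash1l was thus neither the most nor the least abundant message of the ganglion, with a level per length below Nsd1 and Nsd2 in each library and above Nsd3 in each library.

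**Figure D1:**
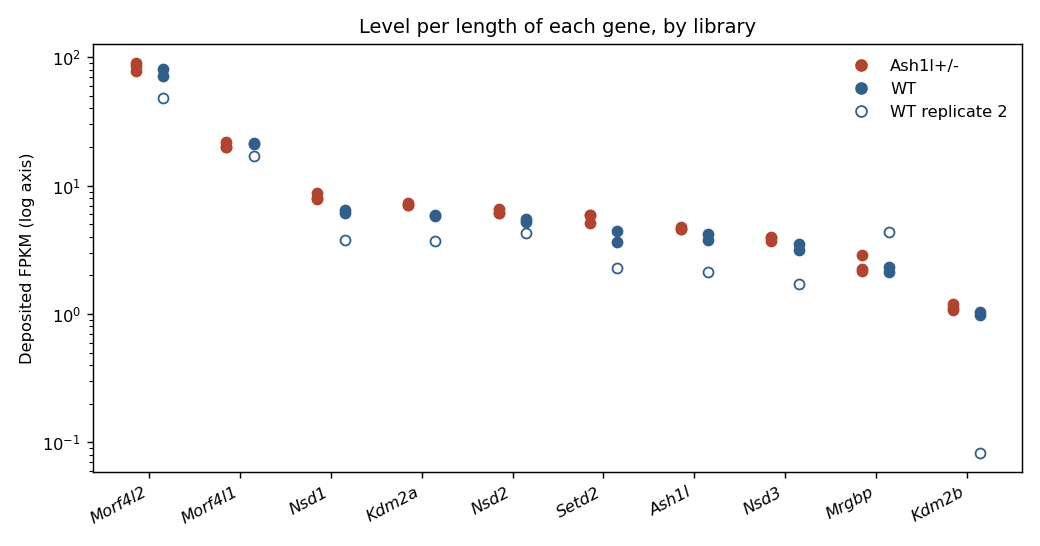
Deposited FPKM of each gene on a log axis, 1 point per library, with Ash1l+/- libraries left of WT libraries and WT replicate 2 as an open circle. Morf4l2 and Morf4l1 lie above all other members, and Kdm2b lies lowest, at 0.0834 FPKM in WT replicate 2.

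Reads of Ash1l, the gene altered in these mice, were no fewer in the group labelled Ash1l+/- than in WT. The gene (ENSMUSG00000028053) lies on the plus strand of chromosome 3, from 88950622 to 89079375 in GRCm38. It had 1452, 1239 and 1238 reads in Ash1l+/- libraries against 1232, 414 and 1049 reads in WT libraries. As CPM (counts scaled to library size, here with TMM factors) these were 66.5, 66.5 and 68.9 CPM in Ash1l+/- and 60.9, 30.9 and 54.4 CPM in WT. Every Ash1l+/- library was above every WT library, and the 3 Ash1l+/- libraries lay within a few percent of each other. The log2 fold change of Ash1l+/- over WT was 0.46 (SE 0.27), and its 95% interval ran from -0.18 to 1.11. Its adjusted p was 0.396 by edgeR's quasi-likelihood test with Benjamini-Hochberg adjustment over all genes. Without WT replicate 2 it was 0.22 (SE 0.08, interval 0.05 to 0.40), with an adjusted p of 0.0593 in the same test. A loess trend on GC content and exon length, removed from each of the 5 libraries, took it to -0.04 (interval -0.20 to 0.12, adjusted p = 0.809). Counts are summed over the whole gene, so a transcript of the altered copy that keeps most exons would be counted too. The counts therefore do not check the genotype labels, and every direction below rests on those labels.

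Dap3, which encodes a mitochondrial ribosomal protein, runs on the opposite strand from 88920803 to 88951181, and its first bases overlap the start of Ash1l. Strand is not marked by the library kit named in the labels, and reads in the overlap cannot be assigned. Dap3 had 58.7, 60.6 and 57.4 CPM in Ash1l+/- against 65.2, 242 and 60.0 CPM in WT, and WT replicate 2 was the only library that was high. Its log2 fold change was -1.05 (adjusted p = 0.388, edgeR's quasi-likelihood test) with 6 libraries and -0.09 (adjusted p = 0.496) with 5. Of 44 tested genes within 500 kb of Ash1l, edgeR called 0 with 6 libraries, and 0 higher and 9 lower with 5. That is a larger share than the 10.4% of all tested genes called lower. The median log2 fold change of the 44 was -0.313 with 6 libraries and -0.145 with 5. GC and length trends were not removed from these values, and the part of such trends was not tested here. The nearest tested genes at lower coordinates were Dap3, Msto1 and Gon4l, and at higher coordinates Rusc1, Fdps and Hcn3. Of these, Rusc1 (log2 fold change -0.29, SE 0.08, adjusted p = 0.0120) and the pacemaker channel gene Hcn3 (-0.32, SE 0.10, adjusted p = 0.0236) were called lower in edgeR with 5 libraries. With 6 libraries Rusc1 was at -0.84 (adjusted p = 0.385) and Hcn3 at 0.10 (adjusted p = 0.913). Hcn3 had 30.0, 31.0 and 27.9 CPM in Ash1l+/- against 35.9, 8.67 and 38.4 CPM in WT, so its sign turned with WT replicate 2.

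Nsd1 had the highest level per length of the methyltransferases in 5 of 6 libraries, the exception being WT replicate 2, where Nsd2 was above it. It was higher in every library labelled Ash1l+/- than in any WT library. It had 148, 138 and 135 CPM in Ash1l+/- against 104, 65.7 and 110 CPM in WT, with a wide gap between the groups even without WT replicate 2. In log2 the fold change was 0.59 (SE 0.23, unadjusted p = 0.0391, adjusted p = 0.385, edgeR's quasi-likelihood test) with 6 libraries. With 5 libraries Nsd1 rose by 0.39 (SE 0.08, adjusted p = 0.00199). That call held when any 1 of the 5 libraries was left out, with log2 fold changes of 0.35 to 0.42. With GC and length trends removed, the value was 0.12 (interval -0.02 to 0.26, adjusted p = 0.30, edgeR).

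Nsd2, best known for its loss in a human growth disorder and its overexpression in myeloma, had 99.7, 109 and 101 CPM in Ash1l+/- and 85.2, 70.6 and 91.0 CPM in WT. Its log2 fold change was 0.33 (SE 0.16, adjusted p = 0.385, edgeR's quasi-likelihood test) with 6 libraries. With 5 libraries it rose by 0.23 (SE 0.08, adjusted p = 0.0399), a call close to the threshold. It was lost without WT replicate 1 (adjusted p = 0.337), WT replicate 3 (0.0703), Ash1l+/- replicate 2 (0.179) or Ash1l+/- replicate 3 (0.0683). Nelfa, a gene on the other strand that overlaps its end, had 288, 191 and 186 reads in Ash1l+/- against 272, 144 and 226 reads in WT. With GC and length trends removed the value of Nsd2 turned to -0.14 (interval -0.27 to -0.01, adjusted p = 0.190, edgeR). Nsd3, an NSD enzyme amplified in some human tumours, had 62.9, 64.5 and 60.2 CPM in Ash1l+/- against 51.4, 28.2 and 57.0 CPM in WT, so the nearest libraries of the groups were only a few CPM apart. It did not pass with 6 libraries (log2 fold change 0.46, SE 0.28, adjusted p = 0.403) or with 5 (0.21, SE 0.08, adjusted p = 0.0852, edgeR).

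Setd2, the only enzyme of the group that makes trimethylated H3K36 in most cells, had the highest log2 fold change of the 4 members called with 5 libraries. It had 53.3, 62.4 and 62.2 CPM in Ash1l+/- against 46.5, 24.4 and 38.1 CPM in WT. The groups did not overlap, although Ash1l+/- replicate 1 lay closer to WT replicate 1 than to the other Ash1l+/- libraries. On the log2 scale the fold change was 0.71 (SE 0.26, unadjusted p = 0.0326, adjusted p = 0.385, edgeR's quasi-likelihood test) with 6 libraries. With 5 libraries Setd2 rose by 0.49 (SE 0.10, adjusted p = 0.00254). The call held without any 1 of the 5 libraries, with log2 fold changes of 0.34 to 0.64. With GC and length trends removed the value was 0.25 (interval 0.06 to 0.45, adjusted p = 0.113, edgeR), and among the 5 methyltransferases it stayed the highest.

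**Figure D2:**
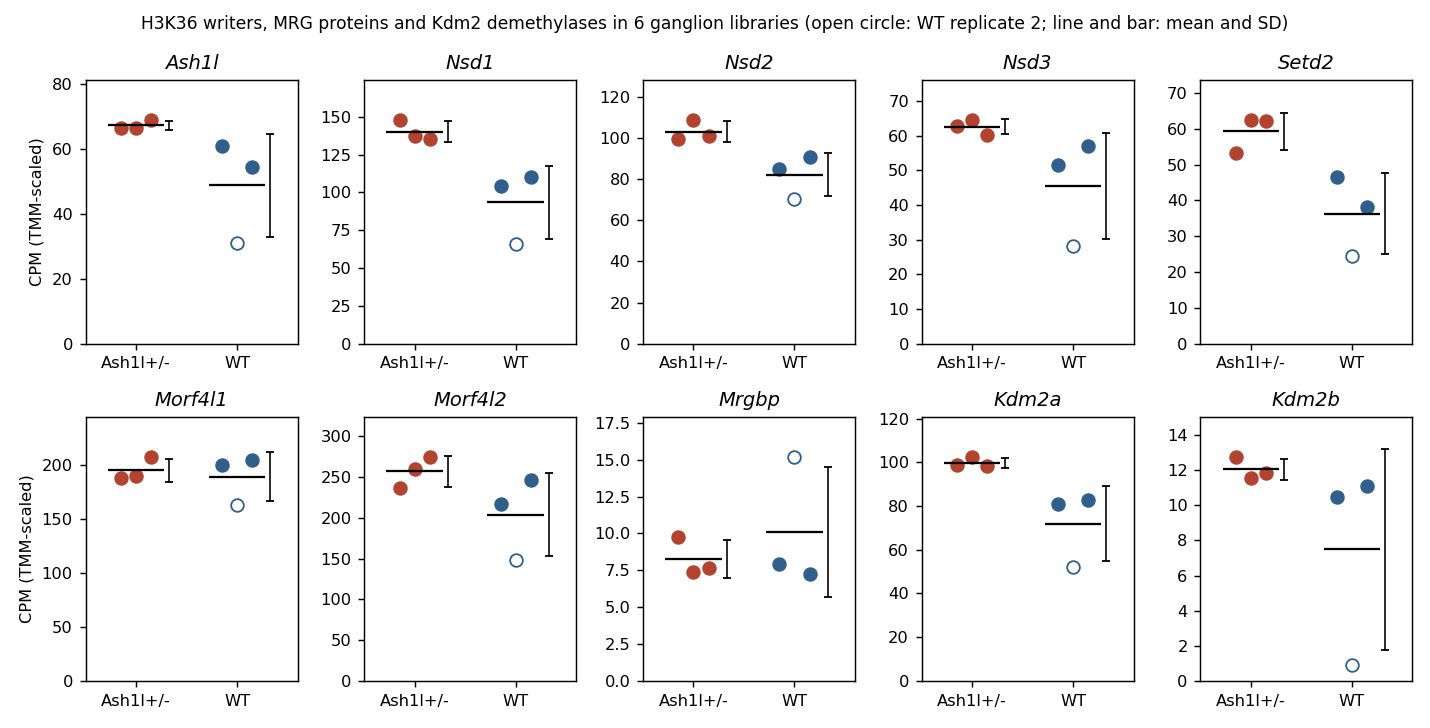
TMM-scaled CPM of each gene in each library, Ash1l+/- left of WT, with lines for group means and bars for SDs (n = 3 each) and WT replicate 2 as an open circle. The 5 methyltransferases, Kdm2a and Kdm2b have all Ash1l+/- libraries above all WT libraries, while Morf4l1, Morf4l2 and Mrgbp overlap between the groups.

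Counted over the 10 genes, edgeR called 0 with 6 libraries, where it called 0 of 16032 genes (0%). At an unadjusted p under 0.05, 2 members passed, both higher, among 1702 genes (10.6%, with 3.22% higher and 7.40% lower), and DESeq2 called 3 genes of the whole table and 0 members. With 5 libraries, edgeR called 4 members (Nsd1, Nsd2, Setd2 and Kdm2a), all higher, where 9.39% of the 16395 genes were called higher and 10.4% lower. All Ash1l+/- libraries lay above all WT libraries for 7 members with 6 libraries, where 19.3% of tested genes did so and 38.5% were apart in either direction. The same 7 did so with 5 libraries, where 24.4% of tested genes were higher without overlap, 24.9% lower and 49.3% either. The median log2 fold change of the members was 0.46 with 6 libraries and 0.22 with 5, beside -0.000256 and 0.00184 over all genes tested. Most of the members are long genes: Ash1l, Nsd1, Nsd2, Nsd3 and Kdm2a each have more exon bases than 97.1% or more of the tested genes, and the range over the 10 was 3135 to 17483 bases. Tested genes with at least 10 kb of exon had medians of 0.42 with 6 libraries and 0.22 with 5, and of 1418 such genes 497 were called higher and 14 lower with 5 libraries. With GC and length trends taken out of the same 5 libraries, the members' median was 0.09 and 1 member, Morf4l1, was called, on the lower side, where 7.15% of all genes were called (3.03% higher and 4.12% lower). In these 5 libraries the genotype and the length trend cannot be told apart for the long members.

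**Figure D3:**
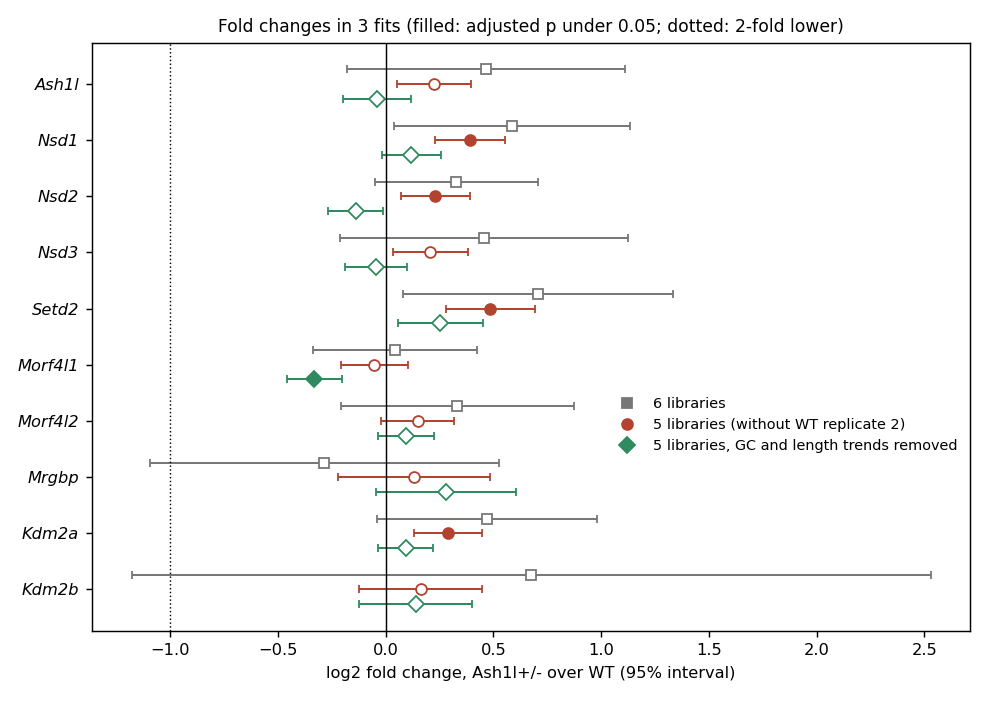
Log2 fold change of Ash1l+/- over WT with its 95% interval for each gene, from 6 libraries (squares), 5 libraries without WT replicate 2 (circles) and those 5 with GC and length trends removed (diamonds). Filled symbols passed an adjusted p of 0.05 in edgeR and the dotted line marks a 2-fold lower level. Nsd1, Nsd2, Setd2 and Kdm2a passed with 5 libraries, and Morf4l1 passed, on the lower side, with the trends removed.

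Morf4l1, whose product MRG15 reads methylated H3K36 and activates ASH1L, differed little between the groups on the CPM scale. It had 188, 190 and 207 CPM in Ash1l+/- against 200.3, 163 and 205 CPM in WT, and the groups overlapped. Its log2 fold change was 0.04 (SE 0.16, interval -0.34 to 0.42, adjusted p = 0.869, edgeR's quasi-likelihood test) with 6 libraries and -0.05 (SE 0.07, interval -0.21 to 0.10, adjusted p = 0.668) with 5. With GC and length trends removed, Morf4l1 fell by 0.33 (SE 0.06, adjusted p = 0.0032, edgeR) with 5 libraries. With all 6 libraries the value so adjusted was -0.51 (unadjusted p = 0.0210, adjusted p = 0.592). The call for Morf4l1 thus appeared only with the trends removed, and with 6 libraries its sign turned as well. That removal used its deposited exon length of 9754 bases, longer than 90.6% of tested genes. How far the call rests on this length was not tested.

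A processed copy on chromosome 16, Morf4l1-ps1 (24529394 to 24530362), matches a Morf4l1 transcript at 99.7% over 620 bases, so reads can be split between them. The copy took 700, 550 and 561 reads in Ash1l+/- libraries against 611, 187 and 572 reads in WT libraries, which is 14.5%, 13.4% and 13.1% against 13.1%, 7.89% and 12.6% of the reads of both. The summed reads had a log2 fold change of 0.08 (adjusted p = 0.777) with 6 libraries and -0.04 (SE 0.07, adjusted p = 0.754) with 5, and -0.32 (adjusted p = 0.00429) with 5 and the trends removed, in edgeR. Summing therefore left each direction and each call of Morf4l1 as it was.

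Morf4l2 had 237, 261 and 274 CPM in Ash1l+/- against 218, 148 and 247 CPM in WT, with WT replicate 3 above the lowest Ash1l+/- library. It did not pass with 6 libraries (log2 fold change 0.33, SE 0.22, adjusted p = 0.426) or with 5 (0.15, SE 0.08, adjusted p = 0.206, edgeR's quasi-likelihood test). BC065397, a noncoding gene that overlaps it, held only 17, 37 and 42 reads in Ash1l+/- against 25, 4 and 20 reads in WT. Mrgbp was the scarcest of the MRG group, at 9.75, 7.40 and 7.68 CPM in Ash1l+/- against 7.90, 15.2 and 7.26 CPM in WT. It was the only member that was higher in WT replicate 2 than in the other WT libraries, by 0.99 on the log2 scale, and its sign followed that library. Its log2 fold change was -0.28 (SE 0.33, adjusted p = 0.616) with 6 libraries and 0.13 (SE 0.17, adjusted p = 0.624, edgeR) with 5.

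Kdm2a, a demethylase of the lower H3K36 methylation states, had 98.7, 102 and 98.2 CPM in Ash1l+/- against 80.9, 52.3 and 82.6 CPM in WT. The Ash1l+/- libraries were tightly grouped and all above the WT libraries. Over all 6 libraries it had a log2 fold change of 0.47 (SE 0.21, adjusted p = 0.385, edgeR's quasi-likelihood test). With 5 libraries Kdm2a rose by 0.29 (SE 0.07, adjusted p = 0.0106). The call was lost without WT replicate 1 (adjusted p = 0.123) or Ash1l+/- replicate 2 (0.0562), and with GC and length trends removed the value was 0.09 (adjusted p = 0.395, edgeR).

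Kdm2b, which also brings a variant Polycomb complex to CG-rich promoters, was the member that WT replicate 2 changed most. It had 278, 215 and 213 reads in Ash1l+/- libraries against 212, 12 and 214 reads in WT libraries, or 12.7, 11.5 and 11.9 CPM against 10.5, 0.897 and 11.1 CPM. The log2 difference of WT replicate 2 from the mean of the other WT libraries was -3.44, with a prior count of 2, and 2.59% of tested genes were lower still by that measure. In the other 5 libraries Kdm2b varied little. Kdm2b had a log2 fold change of 0.68 (SE 0.76, adjusted p = 0.603) with 6 libraries and 0.16 (SE 0.14, adjusted p = 0.432, edgeR's quasi-likelihood test) with 5. Rnf34, a ubiquitin ligase gene that overlaps the Kdm2b locus, had 902, 763 and 759 reads in Ash1l+/- against 791, 412 and 817 reads in WT. The transcripts of the pair share 627 bases, so some reads could belong to either. The antisense gene A930024E05Rik, in the same locus, had 25 to 33 reads in Ash1l+/- and 27 to 28 reads in WT.

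Promoter sequence was found for 5 of the 10 members (Setd2, Morf4l1, Morf4l2, Mrgbp and Kdm2b) among the RefSeq promoters of GRCm38.p6, and not for Ash1l, Nsd1, Nsd2, Nsd3 and Kdm2a. The 250 bases before a start are shown for 3 of them, because the KDM2 proteins dock on unmethylated CG pairs through a CXXC domain: Setd2, which rose with 5 libraries, Morf4l1, which did not pass the test on the CPM scale, and Kdm2b, which was nearly absent from WT replicate 2. Each reads 5′ to 3′ on the strand of its gene, with CG pairs in capitals. Setd2 is at chr9:110532347-110532596 on the plus strand, Morf4l1 at chr9:90114821-90115070 on the minus strand and Kdm2b at chr5:122989100-122989349 on the minus strand.
Setd2: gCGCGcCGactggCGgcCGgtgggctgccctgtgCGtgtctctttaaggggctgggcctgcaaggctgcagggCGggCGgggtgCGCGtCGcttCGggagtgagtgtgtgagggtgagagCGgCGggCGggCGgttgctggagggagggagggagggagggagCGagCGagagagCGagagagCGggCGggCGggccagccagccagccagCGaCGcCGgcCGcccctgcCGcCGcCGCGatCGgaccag
Morf4l1: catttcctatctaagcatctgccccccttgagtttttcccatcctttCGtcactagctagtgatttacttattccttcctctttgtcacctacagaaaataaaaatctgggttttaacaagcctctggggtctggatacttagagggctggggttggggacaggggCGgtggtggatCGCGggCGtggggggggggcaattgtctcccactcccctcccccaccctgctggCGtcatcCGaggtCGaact
Kdm2b: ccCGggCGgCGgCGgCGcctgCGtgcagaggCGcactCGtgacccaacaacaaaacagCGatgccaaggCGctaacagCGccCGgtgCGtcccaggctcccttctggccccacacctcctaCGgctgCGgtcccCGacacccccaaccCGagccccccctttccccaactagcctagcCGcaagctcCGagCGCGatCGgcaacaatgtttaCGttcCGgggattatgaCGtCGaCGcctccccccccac
These windows hold 31, 8 and 27 CG pairs for Setd2, Morf4l1 and Kdm2b, against a median of 6 over 32851 promoters of the same length. The Setd2 window had more CG pairs than 94.8% of those promoters, the Kdm2b window more than 91.4% and the Morf4l1 window more than 57.0%. Kdm2b has 4 annotated windows, and the other 3 hold 12, 36 and 38 CG pairs. All 3 windows shown hold the GC box GGGCGG on either strand, as 32.7% of all promoters do, while the Kdm2b window with 12 CG pairs holds none, and none of those shown holds the letters CCGGAAG, found in 6.9%. Expression was the only readout here, so the counts of CG pairs describe the sequence and not its methylation or its binding.

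The balance within each family was compared as a share of its summed level per length, in which library scaling cancels. Ash1l made up 16.2%, 15.7% and 16.7% of the level of the 5 methyltransferases in Ash1l+/- libraries against 18.2%, 14.9% and 16.4% in WT libraries. The means were 16.2 ± 0.497% and 16.5 ± 1.65% (SD, n = 3 each), a difference of -0.278 percentage points (two-sided exact permutation test, p = 0.8). Without WT replicate 2 the difference was -1.08 points (exact p = 0.3). Nsd1 was the largest share in each Ash1l+/- library, at 30.6%, 27.6% and 27.7%, against 26.4%, 26.8% and 28.1% in WT. Setd2 took 17.9%, 20.3% and 20.8% in Ash1l+/- against 19.2%, 16.2% and 15.8% in WT, and Nsd2 took 21.5%, 22.7% and 21.7% against 22.5%, 30.0% and 24.2%. Setd2 overlapped between the groups (difference 2.64 points, exact permutation p = 0.2), and Nsd2 did so through WT replicate 1 (-3.60 points, exact permutation p = 0.2). Apart from the Nsd2 share of WT replicate 2, no share of the 5 methyltransferases spanned more than 5 points over the libraries.

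Within the MRG pair, Morf4l2 made up 79.7%, 81.0% and 80.5% in Ash1l+/- against 77.2%, 73.9% and 78.9% in WT. The groups did not overlap, with a difference of 3.72 points (two-sided exact permutation p = 0.1, below which 3 against 3 libraries cannot go). Without WT replicate 2 it was 2.32 points. These shares rest on the deposited exon lengths and leave out the copy Morf4l1-ps1. With the copy, Morf4l1 had 205, 193 and 206 TPM in Ash1l+/- against 196, 57.0 and 190 TPM in WT. Morf4l2 had 295, 322 and 337 TPM against 263, 86.6 and 290 TPM. By these values the groups overlap in the balance of the pair, but they scale the copy's reads on its own, shorter length. In raw reads, Morf4l1 with the copy had 4812, 4095 and 4285 in Ash1l+/- against 4665, 2370 and 4526 in WT. Morf4l2 had 5174, 4856 and 4930 reads against 4405, 1983 and 4760. Relative to those summed reads, Morf4l2 was higher in each Ash1l+/- library than in any WT library. The balance with the copy was not tested on either scale. Kdm2b made up 14.5%, 12.9% and 13.7% of the Kdm2 pair in Ash1l+/- against 14.6%, 2.20% and 15.0% in WT. Its difference of 3.11 points (exact permutation p = 1) turned to -1.08 points without WT replicate 2 (exact permutation p = 0.2). Of 7 shares tested, with p adjusted over them by Benjamini-Hochberg, the exact permutation tests gave adjusted p from 0.467 to 1.

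**Figure D4:**
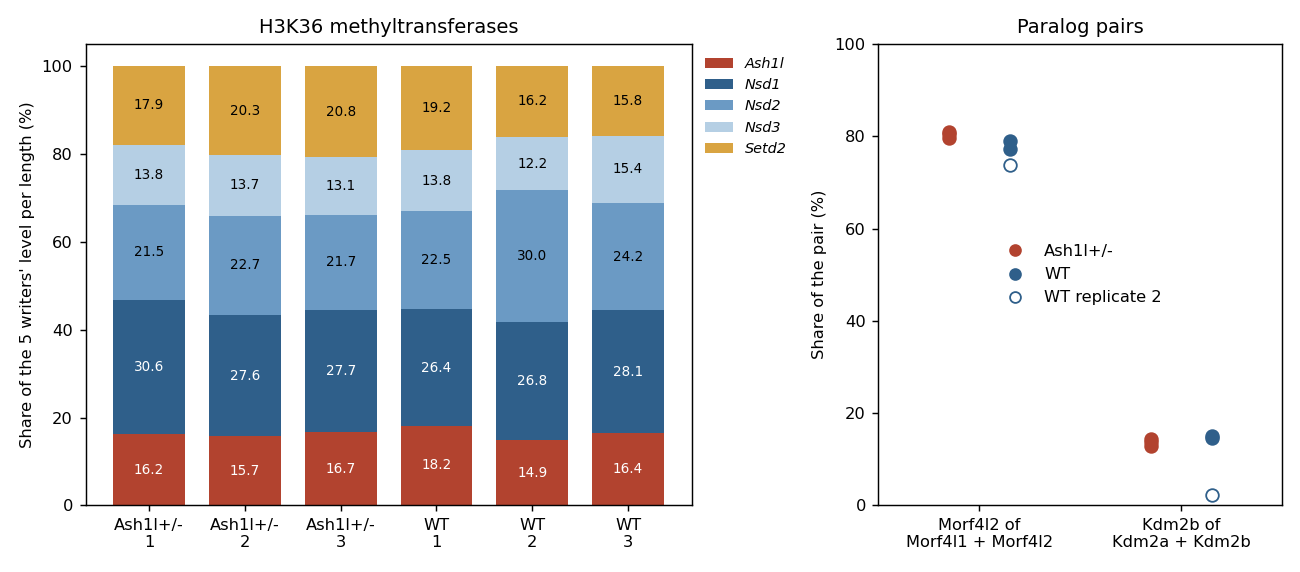
Left, share of each methyltransferase in the summed level per length of the 5 in each library, in percent. Right, share of Morf4l2 in the Morf4l pair and of Kdm2b in the Kdm2 pair, 1 point per library, Ash1l+/- left of WT. Ash1l takes between 14.9% and 18.2% in all libraries, and the open circle at 2.20% is Kdm2b in WT replicate 2.

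The rest of the H3K36 pathway was read from 6 lists with 65 genes, all of which were tested. With 6 libraries edgeR called 0 of the 65, and 4 had an unadjusted p under 0.05. With 5 libraries 10 rose, 3 fell and 52 did not pass, a share called of 20.0% beside 19.8% over all genes, and the median log2 fold change was 0.05. Over all genes, 9.39% were called higher and 10.4% lower in that fit. Once GC and length trends were removed, 2 of the 65 passed (3.08%), beside 7.15% of all genes. The lists as a whole were thus called about as often as any tested gene.

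Among 21 genes of the complexes that contain MRG15, 5 rose and 0 fell with 5 libraries, with a median of 0.08. Kdm5a, an H3K4 demethylase, had 44.4, 47.0 and 47.0 CPM in Ash1l+/- against 32.4, 20.6 and 36.8 CPM in WT (log2 fold change 0.42, SE 0.09, adjusted p = 0.00423, edgeR with 5 libraries). Epc2 and Ing3, subunits of the TIP60 acetyltransferase complex, rose by 0.41 (SE 0.11, adjusted p = 0.0140) and 0.40 (SE 0.14, adjusted p = 0.0426) in the same fit. Emsy, a partner of the SIN3 complex, rose by 0.36 (SE 0.10, adjusted p = 0.0136), although WT replicate 2, at 31.1 CPM, lay near the Ash1l+/- libraries at 33.2, 32.4 and 32.3 CPM. The histone deacetylase gene Hdac2, named after its values were seen, had 106, 121 and 129 CPM in Ash1l+/- against 94.0, 90.5 and 94.4 CPM in WT (0.33, SE 0.08, adjusted p = 0.00915, edgeR with 5 libraries). With 6 libraries the log2 fold changes were 0.62 for Kdm5a, 0.65 for Epc2, 0.54 for Ing3, 0.26 for Emsy and 0.35 for Hdac2, and none passed (adjusted p from 0.385 to 0.400). None of these 5 passed with the trends removed.

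Among 8 genes that act with RNA polymerase II elongation or beside ASH1L at its targets, 2 rose and 1 fell with 5 libraries. Kmt2a, the trithorax-group H3K4 methyltransferase MLL1, had 95.5, 94.5 and 80.9 CPM in Ash1l+/- against 68.3, 19.8 and 64.8 CPM in WT. It rose by 0.44 (SE 0.09, adjusted p = 0.0018, edgeR with 5 libraries), and by 0.28 (SE 0.07, adjusted p = 0.0223) with the trends removed, the only gene of the 65 that was higher in both. Iws1, which links SETD2 to the polymerase, rose by 0.38 (SE 0.10, adjusted p = 0.0130), and the elongation factor gene Supt5 fell by 0.26 (SE 0.08, adjusted p = 0.0213), in edgeR with 5 libraries. With 6 libraries Kmt2a was at 0.82 (adjusted p = 0.390) and Iws1 at 0.65 (adjusted p = 0.385), while Supt5 was at 0.16 (adjusted p = 0.852). Supt5 had 114, 104 and 112 CPM in Ash1l+/- against 134, 32.4 and 129 CPM in WT, so its sign turned with WT replicate 2. With the trends removed from the 5 libraries Supt5 was at -0.07 (adjusted p = 0.536) and Iws1 at 0.09 (adjusted p = 0.607, edgeR).

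Of 19 reader genes, whose products bind methylated H3K36 or related marks, Hdgfl3, a PWWP-domain protein, rose by 0.27 (SE 0.08, adjusted p = 0.0253) and Phf1, a partner of the Polycomb enzyme EZH2, fell by 0.34 (SE 0.11, adjusted p = 0.0312), in edgeR with 5 libraries. Glyr1, a nucleosome-binding PWWP protein, was at -0.01 there and fell by 0.21 (SE 0.06, adjusted p = 0.0394) with the trends removed. Of 9 partners of KDM2B in its Polycomb complex, the deubiquitinase gene Usp7 rose by 0.24 (SE 0.07, adjusted p = 0.0294) and the ubiquitin ligase gene Ring1 fell by 0.37 (SE 0.12, adjusted p = 0.0352). Of 5 other demethylase genes, Kdm4c rose by 0.39 (SE 0.12, adjusted p = 0.0284), with 18.4, 20.5 and 21.7 CPM in Ash1l+/- against 16.3, 4.78 and 14.5 CPM in WT. With the trends removed, Hdgfl3 was at -0.0042, Phf1 at -0.018, Usp7 at 0.075, Ring1 at -0.12 and Kdm4c at 0.24. None of those values passed (adjusted p from 0.214 to 0.983, edgeR with 5 libraries). None of 3 other writer genes passed with 5 libraries: Smyd2 was at -0.26 (SE 0.10, adjusted p = 0.0931) and Setmar at -0.17 (SE 0.18, adjusted p = 0.546). With 6 libraries Hdgfl3 was at 0.46, Phf1 at -0.49, Usp7 at 0.31, Ring1 at -0.27, Kdm4c at 0.76 and Setmar at -0.49, each with its sign as with 5. Glyr1, at 0.15, and Smyd2, at 0.24, had the opposite sign, and none of these 8 passed (adjusted p from 0.385 to 0.834, edgeR).

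**Figure D5:**
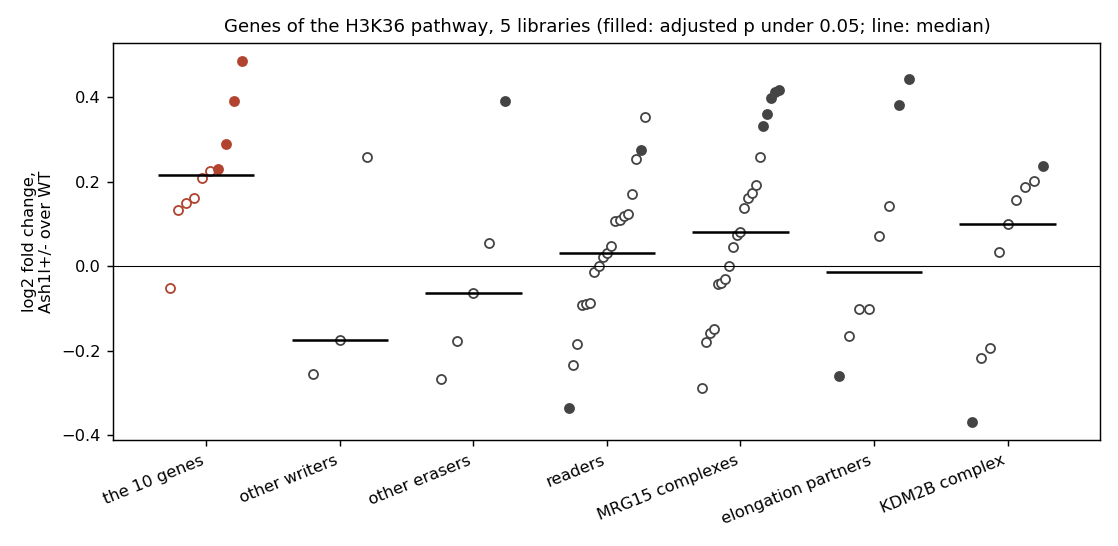
Log2 fold change of Ash1l+/- over WT with 5 libraries for the 10 genes and for the 65 other genes of the pathway by list, 1 point per gene in order of value. Filled points passed an adjusted p of 0.05 in edgeR and lines are medians, at 0.22 for the 10 genes and 0.08 for the MRG15 complexes.

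The genes whose pattern over the 6 libraries was most like that of Ash1l were found among 9781 protein-coding genes with a mean of at least 10 CPM. Likeness was the root mean square difference of log2 CPM after each gene was centred on its own mean. The measure weighs WT replicate 2 heavily, where Ash1l lay -0.90 in log2 from the mean of WT replicates 1 and 3. Its other libraries lay at -0.081 to 0.26. No order without WT replicate 2 was made. The 5 nearest were 2610507B11Rik (0.0224), the DNA break repair gene Nbn (0.0316), the H4K20 methyltransferase gene Kmt5b (0.0342), Scaf4 (0.0356) and the microtubule regulator gene Clasp1 (0.0419). Kmt5b had 46.1, 42.7 and 47.1 CPM in Ash1l+/- against 41.3, 20.9 and 36.9 CPM in WT, the same shape as Ash1l with its lowest value in WT replicate 2. None of the 5 is a member. The nearest members were Nsd3, at place 251 in the order of likeness, Kdm2a at 287, Nsd1 at 447 and Setd2 at 844. Morf4l1, at place 3391, was the farthest of the members with enough reads to be ranked.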

How the data were processed

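Bulk RNA of dorsal root ganglia was sequenced in 3 libraries labelled Ash1l+/- and 3 labelled WT, grouped by the genotype label. Per the labels' protocols, Trizol was used to extract RNA and a NEBNext Ultra kit to make libraries. The authors deposited raw read counts per gene and FPKM for the same genes. HISAT2 2.0.5 and featureCounts 1.5.0-p3 with GRCm38 were used, per the submitters' processing notes, and the sources used here do not give the strand setting.

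Genes that passed filterByExpr entered edgeR 4.0.16 (R 4.3.3) and its quasi-likelihood test on counts, with TMM factors and a genotype term alone, and p-values were adjusted over all of them by Benjamini-Hochberg with a threshold of 0.05. The SE is the log2 fold change over the square root of F. CPM used TMM factors. TPM was computed from counts and deposited gene lengths, and the deposited FPKM gave levels per length. GC and length trends were removed with a loess offset per library (span 0.3, values clipped at percentiles 1 and 99). GC content was that of the longest GENCODE M21 transcript, and length was the deposited gene length. Member transcripts were aligned to all others with blastn 2.17.0 at 95% identity over at least 200 bases. The code of the plain edgeR fit was run on simulated data, while the trend removal, the replicate block and the share tests were not. All pairs of libraries differed by more than sampling noise (lowest chi-square per degree of freedom 3.71). Other tools were limma 3.58.1 and DESeq2 1.42.0.

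The members and lists, and the use of 5 libraries beside 6, were chosen with earlier results of these data known. All 10 members are named. Up to 4 called genes with the largest change are named per list, or the 2 most abundant where none passed, with the 3 nearest genes on each side of Ash1l and the 5 most like it.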

Additional observations from a re-analysis of the deposited data

How the results depend on the processing

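With 6 libraries, DESeq2 called 3 genes, and leaving out 1 library gave 0 to 3252 genes, 0 to 4 members and 0 to 13 pathway genes, where every count above 0 is without WT replicate 2. With 5 libraries (3252 genes, 4 members, 13 pathway genes), removing GC and length trends gave 1172, 1 and 2, and the replicate block with that removal gave 1469, 1 and 2. limma gave 1402, 1 and 1 on log2(FPKM + 1) with a mean FPKM of at least 0.5, 1399, 1 and 1 on log2(FPKM + 0.1), and 0, 0 and 0 without that filter. Leaving out 1 of the 5 libraries gave 796 to 4198 genes, 2 to 5 members and 1 to 16 pathway genes. Where 1 WT library was left, it was assumed to vary like the others. The cause of these shifts was not tested.

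With trends removed, without and with the replicate block, 6 libraries gave log2 fold changes of -0.036 and -0.033 for Ash1l, -0.40 and -0.36 for Nsd2, -0.029 and -0.028 for Nsd3, -0.51 and -0.49 for Morf4l1, and 0.0042 and 0.036 for Mrgbp. 5 libraries gave -0.041 and -0.017 for Ash1l, -0.14 and -0.15 for Nsd2, and -0.045 and -0.054 for Nsd3. Leaving out 1 library gave -0.052 to 0.11 for Morf4l1 and -0.46 to 0.13 for Mrgbp with 6 libraries, and -0.010 to 0.21 for Mrgbp with 5. The shares so moved over -1.08 to 0.567 points for Ash1l, -1.09 to 0.541 for Nsd3 and -1.08 to 5.33 for Kdm2b.

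Deviations from the group means had correlations of 0.000517, -0.0317 and 0.0378 between libraries of the same number. Libraries of different number had -0.0709 to 0.0379. The WT mean includes WT replicate 2, which stands far apart, so these correlations cannot decide whether the numbers pair libraries. The replicate block called 0 members with 6 libraries and 5 with 5, where Ash1l was also called (log2 fold change 0.24, adjusted p = 0.0248). Ash1l was also called in the 5 libraries without Ash1l+/- replicate 1 (adjusted p = 0.0476, edgeR).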
